A study of Mus musculus with 8 samples.

Results

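The genes described here are the B7 family ligands of dendritic cells, with Cd83 and Marchf1 (called March1 on older gene lists). They were chosen by name, and their probes were found by matching the transcript of each array probe to its gene. All 8 genes had a probe, 10 probes in all, out of 20887 genes with a matched probe. By this matching Cd80 and Marchf1 had 2 probes each and the other genes 1, and array probes left without a match are not counted. The measurements came from dendritic cells grown out of bone marrow of female C57BL/6 mice. The LPS group (4 arrays) was collected on day 7, after lipopolysaccharide (LPS), the bacterial cell-wall component sensed by Toll-like receptor 4, had been added at 50 ng/ml overnight. The immature group (4 arrays) was collected on day 6 and had no LPS, and both groups had been grown from monocytes with GM-CSF at 10 ng/ml and with IL-4. The samples hold no untreated day 7 culture, so LPS and the added night of culture cannot be told apart.

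B7 ligands are surface proteins of antigen-presenting cells that T cells read together with the antigen. CD80 and CD86 bind CD28, which activates T cells, and CTLA-4, which restrains them. ICOSL binds ICOS and sustains helper T cells, while PD-L1 (Cd274) and PD-L2 (Pdcd1lg2) bind PD-1 and damp T cell responses. CD83 is a surface protein of mature dendritic cells. MARCH1 is a membrane-bound ubiquitin ligase that tags CD86 and MHC class II for removal from the surface, and mouse CD83 is known to oppose it.

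Of 59305 non-control spots per array, the share flagged well above background was 47.5% to 48.4% after LPS and 47.7% to 51.3% in immature cells, and no spot was saturated. The number of arrays limits the precision: a log2 fold change had a median standard error of 0.13. Immature replicate 3 stood apart from the other immature arrays, with a scaled median absolute deviation of 0.25 to 0.37 between its log2 values and theirs over bright probes, against at most 0.20 among the others. Immature replicates 1 and 2 were the closest of all pairs of arrays, at 0.09, and whether they were separate cultures was not tested. Of 12 dendritic cell marker genes, 11 were well above background on all 8 arrays, Itgax (CD11c) and H2-Ab1 among them, and Cd209a was so on the immature arrays alone. Of the 12, 4 rose, 5 fell (Itgax among them) and 3 did not pass. Their summed level was 994 to 1181 times the 75th percentile after LPS and 1350 to 1464 times in immature cells. Of 9 matched macrophage markers 2 rose and 4 fell (sums 600 to 713 and 438 to 494). Of 6 plasmacytoid dendritic cell markers 1 rose and 0 fell (277 to 309 and 124 to 146). Of 8 matched neutrophil markers 8 fell, with a summed level of 250 to 454 times the 75th percentile on the LPS arrays and 741 to 878 times on the immature arrays. Of 5 matched monocyte markers 2 rose and 3 fell, with a summed level of 450 to 657 times after LPS and 117 to 201 times in immature cells. Of 8 B cell markers, a cell type that carries CD80, CD86 and ICOSL too, 1 was well above background on all 8 arrays, 3 (Blk, Ebf1 and Pax5) on none, and 0 of 3 tested were called. Their summed level was 0.641 to 1.74 on the LPS arrays and 0.845 to 2.90 on the immature arrays. The part of these cells in the results below was not tested, and in such mixed RNA fewer cells of a type cannot be told from less RNA per cell.

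The question put to these genes is how the signals to T cells change when immature dendritic cells mature under LPS. Of the 9 member probes above background, 6 rose, 2 fell and 1 did not pass (limma, Benjamini-Hochberg adjusted p over 25941 probes, called at 0.05). Over all tested probes 49.8% were called, 26.1% higher and 23.7% lower. The LPS and immature arrays did not overlap for 7 of the 9 member probes, where 47.5% of all tested probes were separated in that way. The increases were largest on the dimmer Cd80 probe, Cd83, Cd86 and Cd274, which rose by 3.69-fold to 4.97-fold. Between 97.0% and 98.1% of all tested probes had a lower log2 fold change than these 4. Pdcd1lg2 and the brighter Marchf1 probe rose by 1.45-fold each, and Icosl and the brighter Cd80 probe fell.

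**Figure D1:**
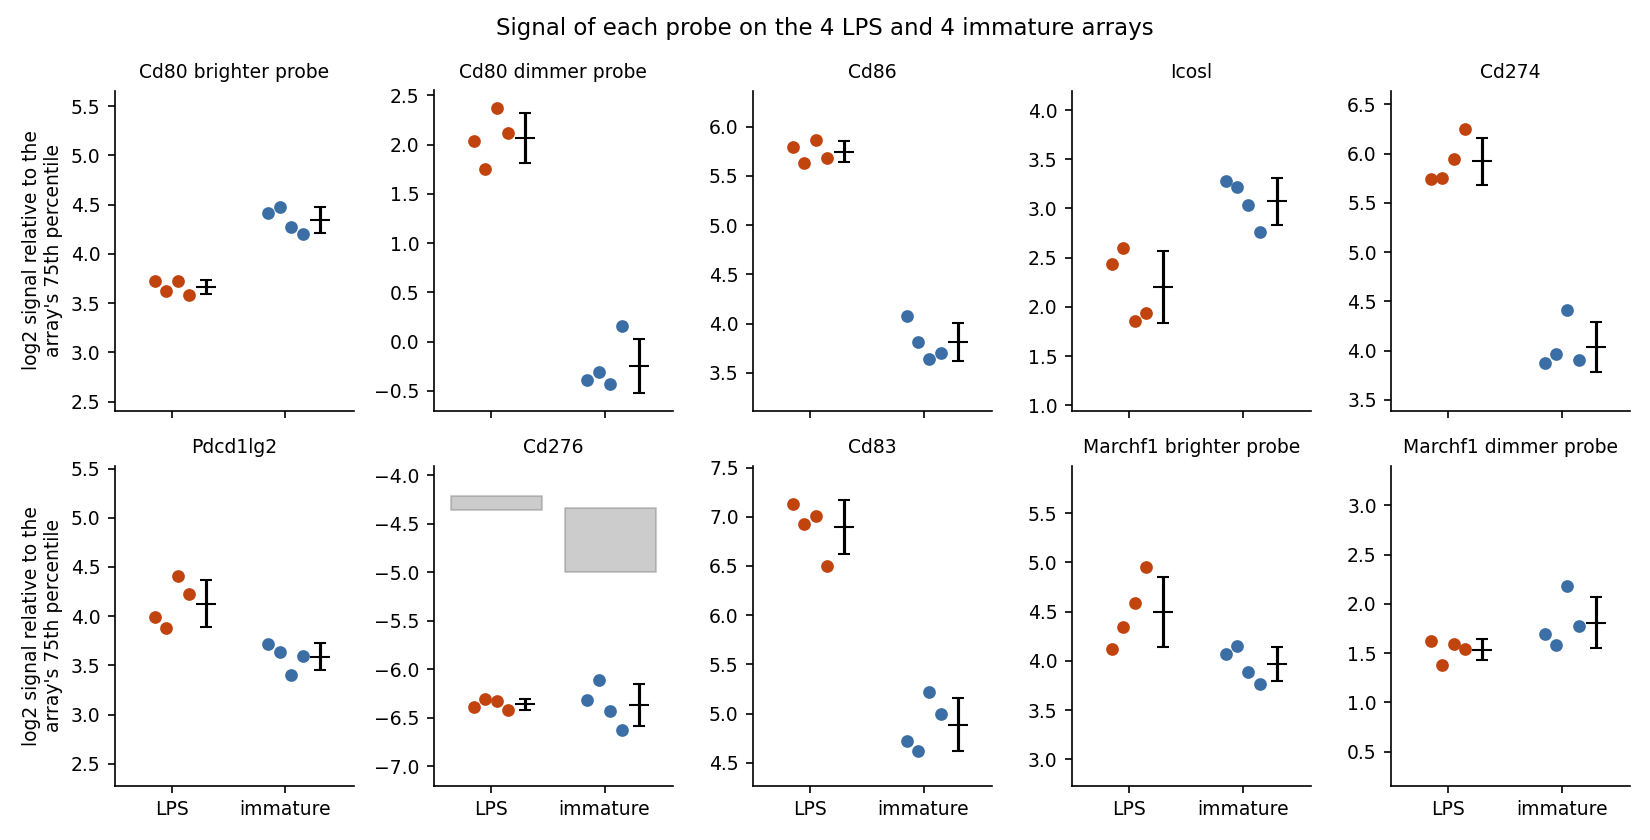
Log2 signal of each probe, relative to the 75th percentile of its array, on the 4 LPS and 4 immature arrays. Points are arrays, black bars the mean and SD, and each panel has its own vertical range. Cd86, Cd274 and Cd83 lie higher on every LPS array, the Cd80 probes move in opposite directions, and Cd276 lies under the grey bands, the range over arrays of the dimmest spot flagged well above background.

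Among the ligands of CD28, Cd86 gave processed signals of 22978, 19693, 22895 and 21485 on the LPS arrays, against 8292, 6694, 5712 and 5850 on the immature arrays. Every LPS array lay far above every immature array, and the LPS arrays differed little among themselves. Relative to the array's 75th percentile, the level was 5.75 ± 0.11 log2 after LPS and 3.81 ± 0.19 in immature cells (SD, n = 4 each). The log2 fold change was 1.94 ± 0.11 (SE; 3.82-fold, 95% confidence interval 3.20 to 4.57; limma adjusted p = 7.02e-06).

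Cd80, the other ligand of CD28 and CTLA-4, gave opposite answers on its probes, both of which the array design assigns to the same transcript. The brighter probe (A_55_P2001218) had signals of 5468, 4899, 5181 and 5020 on the LPS arrays, against 10463, 10644, 8808 and 8280 on the immature arrays. The dimmer probe (A_66_P130432) had 1700, 1343, 2024 and 1808 on the LPS arrays, against 373, 385, 338 and 502 on the immature arrays. On both probes the groups were fully apart, in opposite directions. The brighter probe fell by 0.68 ± 0.09 log2 (SE; limma adjusted p = 0.000388), and the dimmer probe rose by 2.31 ± 0.17 (limma adjusted p = 2.14e-05).

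The disagreement itself was tested as the difference between the probes on each array, fitted over all 3925 pairs of tested probes of 1 gene. The brighter Cd80 probe exceeded the dimmer by 1.36 to 1.87 log2 on the LPS arrays and by 4.04 to 4.81 log2 on the immature arrays. The difference in the LPS effect was −2.99 ± 0.19 log2 (SE; limma adjusted p = 9.23e-05), the 14th largest in size of the 3925. Of all pairs, 19.7% differed at a limma adjusted p under 0.05, and 1.38% (54 pairs, of 50 genes) were called in opposite directions. Where the Cd80 probes lie in the transcript was not analysed here, so no direction is given for the gene as a whole.

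**Figure D2:**
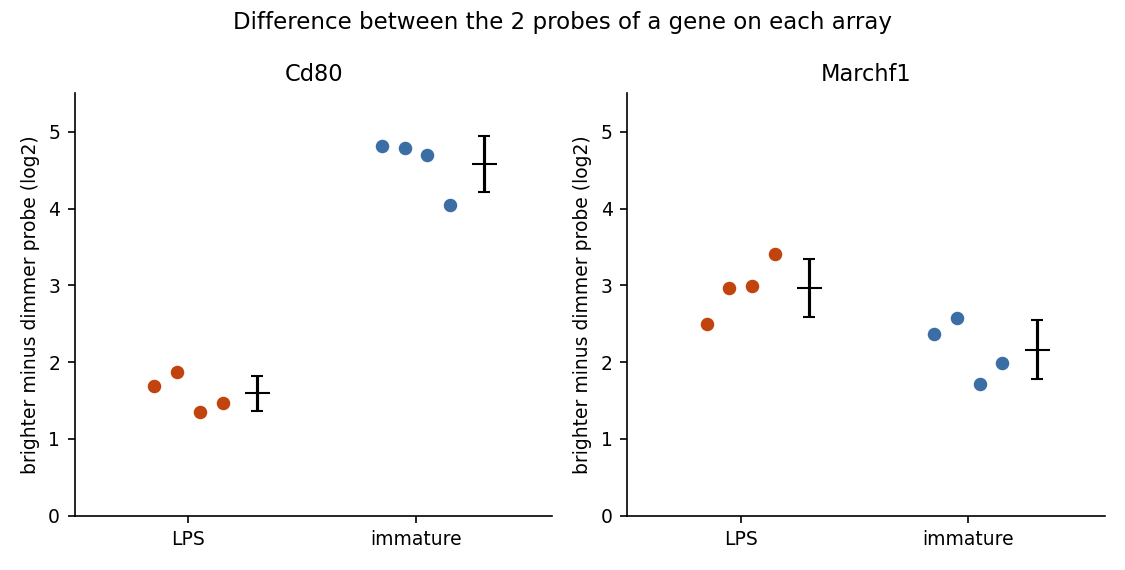
Brighter minus dimmer probe on each array, in log2 units, for Cd80 and Marchf1 on the 4 LPS and 4 immature arrays, with mean and SD as black bars. The Cd80 values are apart, at 1.36 to 1.87 after LPS and 4.04 to 4.81 in immature cells, whereas the Marchf1 values overlap.

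Icosl, the ligand of ICOS, was lower after LPS. Its signal was 2240, 2404, 1417 and 1599 on the LPS arrays, against 4761, 4433, 3736 and 3038 on the immature arrays. The groups did not overlap, but LPS replicates 3 and 4 lay well below LPS replicates 1 and 2. The level was 2.21 ± 0.37 log2 after LPS and 3.07 ± 0.23 in immature cells (SD, n = 4 each). The gene fell by 0.87 ± 0.19 log2 (SE; limma adjusted p = 0.00649), so that the signal was 1.82-fold lower after LPS. With Cd86 higher and Icosl lower, the ratio of their signals on an array was 6.97-fold higher after LPS, a description of these probes with no test of its own.

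The ligands of PD-1 both rose, by unequal amounts. Cd274 (PD-L1) had signals of 22115, 21388, 24149 and 31715 on the LPS arrays, against 7187, 7461, 9730 and 6713 on the immature arrays. LPS replicate 4 was the highest of its group and immature replicate 3 of its own, and the groups stayed far apart. The log2 fold change was 1.88 ± 0.16 (SE; 3.69-fold, 95% confidence interval 2.86 to 4.74; limma adjusted p = 4.49e-05).

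Pdcd1lg2 (PD-L2) had signals of 6586, 5840, 8319 and 7840 on the LPS arrays, against 6447, 5945, 4826 and 5428 on the immature arrays. The unscaled signals overlapped, since LPS replicate 2 lay below immature replicates 1 and 2. After scaling the groups were just apart, with a lowest LPS level of 3.88 and a highest immature level of 3.72 log2. The log2 fold change was 0.54 ± 0.13 (SE; 1.45-fold, 95% confidence interval 1.18 to 1.79; limma adjusted p = 0.00936). The call depends on the scaling: it was lost when arrays were scaled to their median (0.37, limma adjusted p = 0.0538) or not scaled (0.33, limma adjusted p = 0.0809).

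As a description, with no test since the pair was chosen for its unequal rises, the log2 ratio of Cd274 to Pdcd1lg2 was also taken within each array, where scaling has no part. The log2 ratio of Cd274 to Pdcd1lg2 was 1.79 ± 0.20 in LPS-treated cells and 0.45 ± 0.38 in immature cells (SD, n = 4 each). It ran from 1.54 to 2.02 on the LPS arrays and from 0.16 to 1.01 on the immature arrays, a ratio 2.54-fold higher after LPS.

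Cd274 and Pdcd1lg2 are neighbouring protein-coding genes on chromosome 19. Around them, and in order along the chromosome, Insl6 rose by 2.34 ± 0.10 log2 (SE; limma adjusted p = 2.25e-06), Rln1 was well above background on 1 LPS array alone, and Plgrkt, which lies next to Cd274, rose by 0.42 ± 0.10 (0.00678). Beyond Pdcd1lg2, Ric1 rose by 1.36 ± 0.09 (1.46e-05), Ermp1 had −0.03 ± 0.08 (0.773) and Mlana was below background. Thus 3 of the 4 tested neighbours were higher after LPS, where 30.6% of all genes tested by their brightest probe were.

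Promoter sequences are shown for both PD-1 ligands, which rose unequally, and for Cd80 and Icosl, which had a falling probe. They are the 250 bases before the gene's start as RefSeq gives it on build GRCm38.p6, 5′ to 3′ on the gene's strand. Matches to 4 motifs, searched on both strands, are in capitals. The NF-kB motif is GGG, any 5 bases and CC, the STAT motif TTC, any 3 bases and GAA, the interferon motif GAAA, any 2 bases and GAAA, and the AP-1 motif TGANTCA. The windows are chr19:29367188-29367437 (+) for Cd274, chr19:29410669-29410918 (+) for Pdcd1lg2, chr16:38458683-38458932 (+) for Cd80 and chr10:78069118-78069367 (+) for Icosl.
Cd274: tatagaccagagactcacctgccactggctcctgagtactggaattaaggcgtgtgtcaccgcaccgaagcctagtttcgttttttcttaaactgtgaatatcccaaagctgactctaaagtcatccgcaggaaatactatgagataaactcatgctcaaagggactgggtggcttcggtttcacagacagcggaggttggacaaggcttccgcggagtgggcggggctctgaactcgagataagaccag
Pdcd1lg2: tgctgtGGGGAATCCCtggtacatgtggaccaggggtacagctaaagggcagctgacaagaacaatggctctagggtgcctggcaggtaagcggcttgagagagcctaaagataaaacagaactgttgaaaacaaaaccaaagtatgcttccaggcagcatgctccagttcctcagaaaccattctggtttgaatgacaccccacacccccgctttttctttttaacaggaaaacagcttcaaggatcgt
Cd80: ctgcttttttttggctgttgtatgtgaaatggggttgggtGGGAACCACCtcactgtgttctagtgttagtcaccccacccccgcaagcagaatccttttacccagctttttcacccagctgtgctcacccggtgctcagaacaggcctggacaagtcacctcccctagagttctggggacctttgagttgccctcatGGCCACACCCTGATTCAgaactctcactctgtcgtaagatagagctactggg
Icosl: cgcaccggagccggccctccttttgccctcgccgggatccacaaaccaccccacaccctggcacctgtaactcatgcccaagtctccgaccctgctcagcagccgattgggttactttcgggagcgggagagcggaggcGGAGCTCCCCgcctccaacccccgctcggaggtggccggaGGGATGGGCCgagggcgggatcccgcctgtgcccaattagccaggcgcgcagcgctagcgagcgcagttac

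Of 32851 RefSeq promoters cut in the same way, 45.8% held the NF-kB motif, 7.02% the STAT motif, 2.98% the interferon motif and 6.75% the AP-1 motif. The Cd274 window had 0 exact matches to the 4 motifs. Near matches were not searched for, and whether any motif bears on the changes was not tested. The Pdcd1lg2 window had GGGGAATCCC, which matches the NF-kB motif on both strands, from 244 to 235 bases before the start. Cd80 had 2 NF-kB matches and, next to the second, 1 AP-1 match, TGATTCA, while Icosl had 2 NF-kB matches. Of the other members, Cd276 and Marchf1 had entries too, 6 of 8 members in all. The window of Cd276, which was below background, had 10 NF-kB matches, counted on each strand and partly overlapping. Marchf1 had 1 STAT match before start 1, 1 NF-kB match before start 2 and 0 matches before start 3. Cd83 and Cd86 were not analysed here.

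Cd276, the B7 family member B7-H3, was not well above background on any of the 8 arrays. Its raw spot brightness was 57.5 to 64 on the LPS arrays and 57 to 65 on the immature arrays, against a local background of 61 to 65 around it on the LPS arrays and 53.5 to 60 on the immature arrays. Its level was at most −6.30 log2 on the LPS arrays and −6.11 on the immature arrays, below the dimmest spot flagged well above background on any array, which was at −4.36 after LPS and −4.99 in immature cells. No fold change is given.

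Cd83 had signals of 57853, 48410, 50581 and 37794 on the LPS arrays, against 12971, 11745, 16983 and 14313 on the immature arrays. LPS replicate 4 was the lowest of its group and still more than any immature array. The level was 6.89 ± 0.27 log2 after LPS and 4.89 ± 0.27 in immature cells (SD, n = 4 each). Cd83 rose by 4.01-fold (95% confidence interval 3.04 to 5.28; SE of the log2 fold change 0.17; limma adjusted p = 5.21e-05).

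Marchf1 was measured on a brighter probe (A_51_P121031), printed in 10 spots per array, and on a dimmer probe (A_55_P2131979) printed once. The brighter probe had signals of 7173, 8073, 9452 and 12901 on the LPS arrays, against 8220, 8447, 6765 and 6118 on the immature arrays. The dimmer probe had 1272, 1033, 1183 and 1215 on the LPS arrays, against 1589, 1424, 2067 and 1536 on the immature arrays. On the brighter probe LPS replicate 4 was the highest of its group, and on both probes the scaled groups overlapped.

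The spread of the brighter Marchf1 probe over its 10 spots was 0.04 to 0.05 log2 (SD) on each array, and that of its mean was 0.36 between the LPS arrays and 0.17 between the immature arrays. Its log2 fold change was 0.53 ± 0.18 (SE; limma adjusted p = 0.0363), against −0.27 ± 0.13 on the dimmer probe (limma adjusted p = 0.124). The difference between the probes in the LPS effect was 0.81 ± 0.24 log2 and just missed the threshold (limma adjusted p = 0.0504).

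The increase of the brighter Marchf1 probe is not a firm call. Leaving out immature replicate 1, 3 or 4 or LPS replicate 3 or 4 ended it (limma adjusted p = 0.0571, 0.0716, 0.0925, 0.0825 and 0.0642), as did scaling to the array median (0.149), to detected probes (0.0555) or to spike-ins (0.0776) and no scaling (0.190). The dimmer probe was called lower when arrays were scaled to their median (−0.44, limma adjusted p = 0.0162) or not scaled (−0.48, 0.0144).

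**Figure D3:**
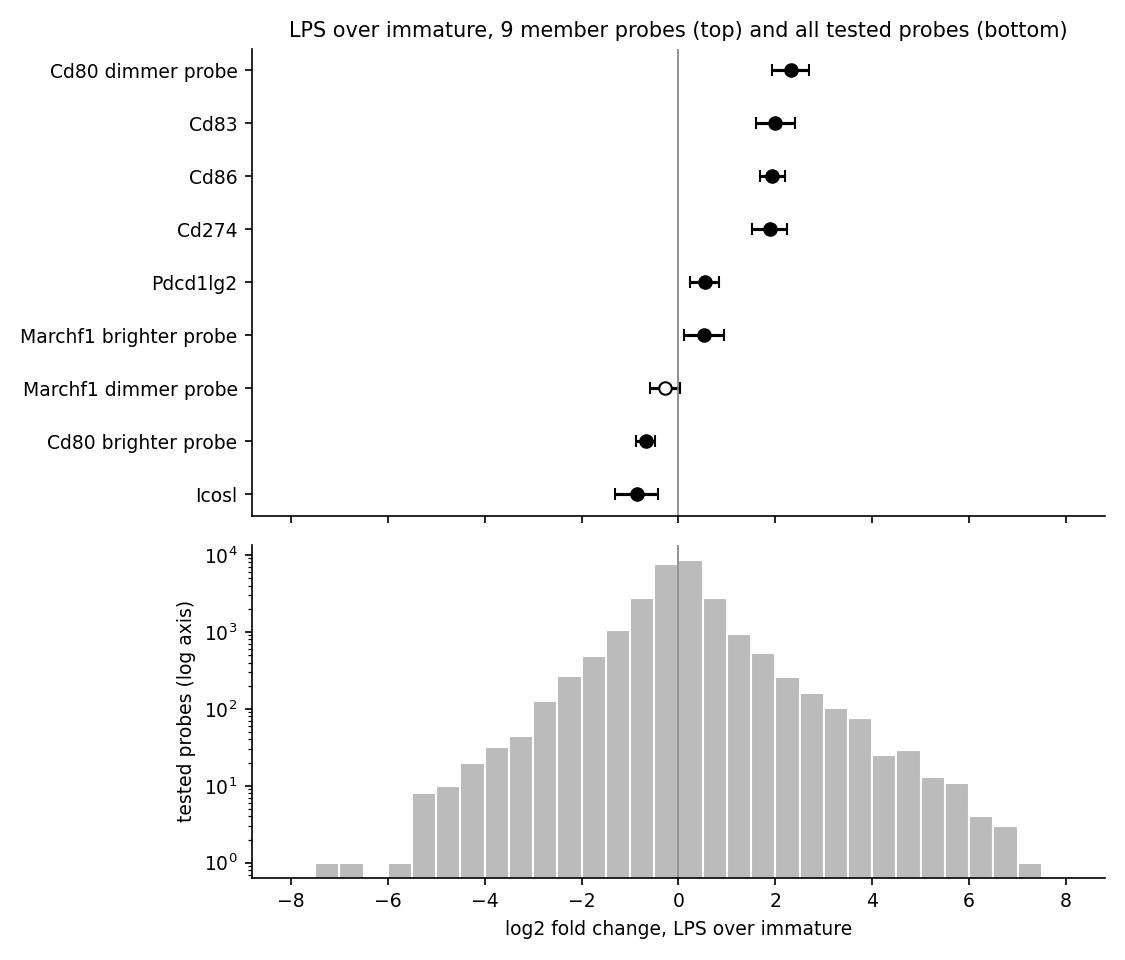
Log2 fold change of LPS over immature with 95% confidence intervals for the 9 tested member probes (top; filled points passed an adjusted p of 0.05), over the distribution of log2 fold changes of all 25941 tested probes (bottom, on a log axis). The dimmer Cd80 probe, Cd83, Cd86 and Cd274 lie at 1.88 to 2.31, and Icosl and the brighter Cd80 probe at −0.87 and −0.68.

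Immature replicate 3, the array that stood apart, decided none of the calls except that of the brighter Marchf1 probe. Without it the log2 fold changes were 2.25 for the dimmer Cd80 probe, 2.11 for Cd83, 2.01 for Cd274, 1.88 for Cd86, 0.48 for Pdcd1lg2, −0.70 for the brighter Cd80 probe and −0.88 for Icosl, all of them called.

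The genes whose array profile was nearest to that of a member were found by the root mean square difference of the 8 log2 values, each profile centred on its own mean, among 16622 tested probes of other genes. Nearest to Cd274 were Nupr1 (0.09 log2), Cabyr (0.11) and Acp5 (0.12). For Cd83 they were Prnp, which encodes the prion protein (0.07), Sh3d21 (0.09) and the ubiquitin ligase gene Cblb (0.09). The profile of Cd86 lay nearest to those of Ikzf4, a transcription factor gene of the Ikaros family (0.06), Tlcd1 (0.10) and Cdkn2b, an inhibitor of the cell cycle (0.14). For Pdcd1lg2 it was Il4ra, the receptor chain for IL-4 (0.08), Arnt (0.09) and Nkain1 (0.09), and for Icosl Pwwp3a (0.12), Cd200r3 (0.13) and Serpina3h (0.13). The Cd80 probes had no neighbour in common, with Ucp3 (0.04), Eif3i (0.06) and Scamp5 (0.06) nearest to the brighter and Kdm4a (0.13), Ankrd33b (0.20) and Mov10 (0.20) nearest to the dimmer. The brighter Marchf1 probe was nearest to Qsox1 (0.11), Fbxl5 (0.12) and Ptpn1 (0.12). These distances describe 8 arrays of 2 groups, in which the group difference makes up most of a profile.

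Genes around the members were read from lists, each gene by its brightest probe, against a background of 30.6% of genes higher and 24.0% lower and a median log2 fold change of 0.06 over 12706 tested genes. Of 9 tested genes for other B7-related surface ligands 6 rose, 0 fell and 3 did not pass, with a median of 0.94. This list is mixed and reaches beyond the B7 family, to Cd200 and Pvr among others, so its counts do not describe that family. The largest increases were in Cd200, which restrains myeloid cells (4.09 ± 0.18 log2, SE; limma adjusted p = 2.37e-06), and Pvr, a ligand of the receptors TIGIT and CD226 (1.45 ± 0.15; 0.000145). The PD-1 homolog VISTA, encoded by Vsir, had −0.33 ± 0.24 (0.289), and Vtcn1 (B7-H4) was below background.

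Of 11 genes for receptors and partners of the ligands, 6 were tested, and 1 rose, 1 fell and 4 did not pass. Btla, an inhibitory receptor, rose by 1.14 ± 0.32 log2 (SE; limma adjusted p = 0.0185). Cd28, the receptor of CD80 and CD86 and a gene of T cells, fell by 1.61 ± 0.43 (0.0150), at a level of −1.34 ± 0.43 after LPS and 0.27 ± 0.92 in immature cells (SD). Of 8 T cell markers 6 were tested, of which 1 (Lck) rose, 2 (Cd2 and Cd3d) fell and 3 did not pass, Cd8a was above background on no array, and the summed level was 5.34 to 6.21 times the 75th percentile on the LPS arrays and 4.43 to 5.28 times on the immature arrays. The median of the receptor list was 0.20, and without immature replicate 3 its counts were 2 higher and 2 lower.

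Among the MARCH ligases 8 of 11 genes were tested, of which 4 rose, 1 fell and 3 did not pass, with a median of 0.39. Marchf5, a ligase of the mitochondrial outer membrane, rose most (1.13 ± 0.10 log2, SE; limma adjusted p = 4.59e-05), with Marchf1 next among the called increases, and Marchf6 of the endoplasmic reticulum fell by 0.39 ± 0.09 (0.00653). Marchf8, the closest relative of Marchf1, had −0.21 ± 0.12 (0.185). The number of rising genes was 1 with scaling to the array median or no scaling, and 2 with scaling to detected probes or spike-ins, or without immature replicate 1 or 4 or LPS replicate 3 or 4, and 2 genes were lower without immature replicate 3.

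Of 11 genes of MHC class II presentation, whose surface proteins MARCH1 tags, 8 fell, 0 rose and 3 did not pass, with a median of −0.75. H2-DMb2 and H2-DMa, whose products load peptides, fell most, by 1.97 ± 0.11 and 1.80 ± 0.11 log2 (SE; limma adjusted p = 7.02e-06 and 7.41e-06). The chains of the surface molecules themselves were divided: H2-Aa fell by 0.75 ± 0.10 (0.000427), while H2-Ab1 had 0.02 ± 0.07 (0.866) and H2-Eb1 −0.21 ± 0.10 (0.105).

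For genes whose products stabilise or degrade PD-L1, 3 of 10 rose, 0 fell and 7 did not pass, with a median of 0.02 and thus close to the background. B3gnt3, a glycosyltransferase gene, rose by 0.83 ± 0.18 log2 (SE; limma adjusted p = 0.00599) and Hip1r, which in human cells routes PD-L1 to the lysosome, by 0.67 ± 0.18 (0.0142). Cmtm6, whose product keeps PD-L1 at the surface, had −0.08 ± 0.15 (0.679). The count of falling genes of this list was no longer 0 in 10 of 20 alternatives to the processing. It was 3 with scaling to the array median or no scaling, and 1 without immature replicate 1 or 3. That count thus depends on the scaling and on single arrays.

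Of 27 tested NF-kB, STAT and interferon pathway factors 20 rose, 2 fell and 5 did not pass, with a median of 0.79. Irf8, a transcription factor of dendritic cells, rose by 2.09 ± 0.18 log2 (SE; limma adjusted p = 4.64e-05). Myc fell by 2.83 ± 0.42 (0.000853). The count of falling genes was 1 without immature replicate 1 or 4, without any 1 of the 4 LPS replicates or with no filter on dim probes. Of 13 other surface markers of mature dendritic cells 11 rose, 1 fell and 1 did not pass, with a median of 1.32. Slamf1 and Cd200 rose most (4.28 ± 0.24 and 4.09 ± 0.18; 5.90e-06 and 2.37e-06), and the adhesion receptor gene Cd44 fell by 0.52 ± 0.10 (0.00287). Cd200, by the same probe, is also on the list of other B7-related surface ligands, so it counts in both lists.

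**Figure D4:**
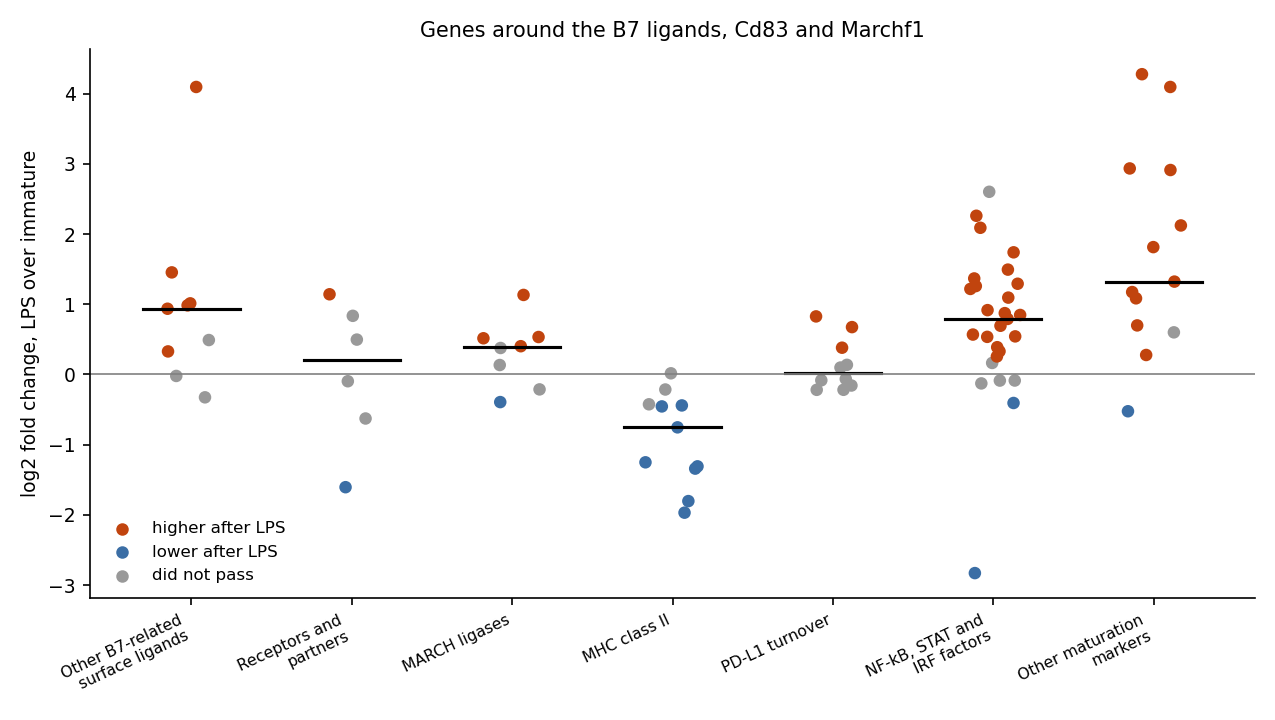
Log2 fold change of LPS over immature for the tested genes of 7 lists, each point a gene by its brightest probe, coloured by whether it was called higher or lower or did not pass, with the median of each list as a black line. Medians run from −0.75 for MHC class II to 1.32 for other maturation markers, against 0.06 over all tested genes.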

How the data were processed

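Total RNA of 8 samples was labelled with Cy3 and hybridised to 1-colour Agilent arrays, 1 array per sample and all on 1 slide, with LPS samples in one slide row and immature samples in the other, so slide row and treatment cannot be told apart. Per the file headers the deposited processed signal is an intensity from Agilent Feature Extraction 11.0.1.1, background-subtracted and spatially detrended but not scaled between arrays. Other deposited columns are flags for spots above background, saturated or outlying. The array design is on build mm9, and probe positions were not used here.

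Outlier spots were dropped (122 to 206 per array, none of a member), spots of a probe were averaged as log2, and the array's 75th percentile was subtracted. Of 55681 probes 27509 matched 1 gene by transcript. A probe was tested when well above background on all 4 arrays of a group. LPS was compared with immature by limma's lmFit and eBayes (limma 3.58.1, statmod 1.5.0, R 4.3.3), two-sided, adjusted by Benjamini-Hochberg over all 25941 tested probes, called at an adjusted p of 0.05. Differences between probes of 1 gene were fitted the same way over 3925 pairs. Both fits were tested on simulated data. Figures were drawn with matplotlib 3.10.9. The named genes are all members, from each list the 2 called genes that changed most in the direction more of its genes took and the 1 that changed most in the opposite one, the 3 nearest profiles and the neighbours on chromosome 19; 1 gene that this rule names is not reported here. Some others of the lists (Vsir, Vtcn1, Marchf8, H2-Aa, H2-Ab1, H2-Eb1 and Cmtm6), the neighbours and the ratios between members were chosen after their values were seen. The members and lists were chosen with earlier results of these data known. The labels do not say that replicates were separate cultures or animals, so p-values measure the spread between these samples.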

Additional observations from a re-analysis of the deposited data

How the results depend on the processing

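The 20 alternatives covered scaling, background correction, the filter on dim probes, 1 probe per gene, the variance prior, the replicate number as a block, averaging immature replicates 1 and 2, and leaving out each array. Under all of them that gave a value, the dimmer Cd80 probe (2.11 to 2.45 log2), the brighter (−0.89 to −0.63), Cd86 (1.73 to 2.03), Cd274 (1.67 to 2.01), Cd83 (1.79 to 2.13) and Icosl (−1.07 to −0.75) kept their direction and call, as did the difference between the Cd80 probes (−3.17 to −2.88). Pdcd1lg2 and Marchf1 changed calls as given above. The difference between the Marchf1 probes passed with normexp, run on the median signal (0.81, limma adjusted p = 0.0261), with only probes above background on all 8 arrays (0.81, 0.0466) and with a trended prior (0.81, 0.0473). It ranged from 0.66 to 0.96 with an array left out, passing without immature replicate 2 (0.94, 0.0424) or LPS replicate 1 (0.96, 0.0318).

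The median log2 fold change over all probes shifted by −0.17 with scaling to the array median and by −0.21 with no scaling. Of 12923 probes called, 6768 rose and 6155 fell (52.4% higher), against 4438 rising with median scaling (34.6% higher) and 4088 with no scaling (31.0%). With no filter on dim probes 19198 rose (75.6% of calls), and with 1 probe per gene 3995 rose and 3127 fell. The 75th percentile was 392 to 418 on the LPS arrays and 449 to 490 on the immature arrays. Leaving out its subtraction, as with no scaling, thus lowered the log2 fold change of each tested member probe alike. In addition, 1 probe per gene tests fewer features. Beyond that the cause of these shifts was not tested. With the replicate block the brighter Marchf1 probe was not called (limma adjusted p = 0.0844) and no other call of a member changed. With that block 2 MARCH genes were called higher, 1 gene of the NF-kB, STAT and interferon list lower, and 12090 probes were called. Deviations from the group mean correlated above 0.1 in 2 of 4 pairs of LPS and immature arrays with the same number (−0.00451 to 0.225). Among pairs with unlike numbers it was 1 of 12 (−0.182 to 0.269). Whether the same number marks a pair of samples was not tested. List counts stayed within 1.5 times of those given in 245 of 280 comparisons. Dim signal limits Cd276 and the listed genes below background.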
